A study of Mus musculus with 28 samples.

Results

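Interferon-induced genes are a list of 38 mouse genes drawn up from general knowledge of the interferon response, and 36 of them were measured here. The list was chosen with earlier results of these data known, so it is not independent evidence. A gene was measured where the annotation of the array gave its symbol alone to a probe set, and 49 probe sets did so. For the 10 members with several probe sets, the one with the largest mean signal across the arrays stood for the gene. The 36 members are among 12393 genes measured in this way. Ly6e had no probe set with its symbol, and Ifi203 was named only by probe sets that carry several symbols. Neither was analysed here. No group was treated with an interferon, so the list's name rests on general knowledge and not on a response measured in these arrays.

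The study measured gene expression in 28 preparations of purified mouse T cells on the C57BL/6N background, using 1 Affymetrix Mouse 430A2 array for each preparation, and the values are log2 signals. CD4 cells carried the AND receptor transgene and CD8 cells the OT1 receptor transgene, so lineage, receptor and antigen cannot be told apart in CD8 against CD4 comparisons. All cells were first kept for 2 days in culture medium that held interleukin 7 at 5 ng/ml. Stimulated cultures grew on plate-bound antibodies against CD3 and against CD28 at 10 µg/ml, which engage the T cell receptor and its costimulator, and unstimulated cultures were on untreated plates. The 12 arrays of day 2 hold 3 each of unstimulated and stimulated CD4 and CD8 cells, sorted again after culture. The 16 arrays of day 5 hold cells that spent a further 3 days in host mice and were sorted from spleen and lymph nodes. Unstimulated cells came from untreated plates and went into hosts free of antigen. Transient cells were stimulated in culture and went into hosts free of antigen. Continuous cells were stimulated in culture and went into hosts that express the antigen, named dtg-O or dtg-M in the labels. Each day 5 group had 3 arrays, except unstimulated and transient CD4 cells with 2 each. The series calls its replicates independent biological replicates. Every RNA was amplified in 2 rounds before hybridization. In such bulk samples, fewer cells of a type and less RNA per cell cannot be told apart.

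Interferons are secreted proteins that cells release on sensing viruses or, for interferon gamma, that T and NK cells release on recognising antigen. Type I interferons signal through Jak1 and Tyk2 to a complex that includes Stat2 and Irf9 and binds the interferon-stimulated response element of target promoters. Interferon gamma signals through Jak1 and Jak2, and its targets are known for another element, the gamma-activated site. Ifit, Oas and Mx genes are known mainly as targets of type I interferons, and guanylate-binding proteins, immunity-related GTPases, Irf1 and the peptide transporter genes respond to interferon gamma as well.

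The response element was searched in RefSeq promoters (build GRCm38.p6, 250 bases before to 50 bases after each gene's start) as GAAA, any 2 bases and GAAA again, or on the other strand as TTTC, any 2 bases and TTTC, and overlapping matches were kept. It was found in 3.44% of all 32851 promoter windows. Of the measured members, 26 had at least 1 window in the table, and 13 of these held a match and 13 did not. Counted by window, 14 of the members' 36 windows (38.9%) held one. Gamma-activated sites, searched as TTCNNNGAA, were in 9 of those windows (25.0%) and in 8.30% of all windows. The 5 stretches printed here, from position -160 to position -1 before the start, belong to the members that were called in the most comparisons among those whose matches all lie before the start. Capitals mark the response element matches.
Gbp2, chr3:142620503-142620662, plus strand: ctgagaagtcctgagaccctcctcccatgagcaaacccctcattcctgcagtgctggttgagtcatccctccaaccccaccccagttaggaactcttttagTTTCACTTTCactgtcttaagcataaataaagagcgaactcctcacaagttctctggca
Irgm1, chr11:48871421-48871580, minus strand: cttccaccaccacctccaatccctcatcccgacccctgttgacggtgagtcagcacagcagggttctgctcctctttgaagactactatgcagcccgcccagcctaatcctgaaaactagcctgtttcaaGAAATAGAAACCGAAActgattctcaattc
Bst2, chr8:71537473-71537632, minus strand: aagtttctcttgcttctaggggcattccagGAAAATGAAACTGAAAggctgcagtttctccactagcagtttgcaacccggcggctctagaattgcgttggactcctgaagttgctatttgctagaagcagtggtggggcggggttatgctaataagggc
Gbp3, chr3:142559884-142560043, plus strand: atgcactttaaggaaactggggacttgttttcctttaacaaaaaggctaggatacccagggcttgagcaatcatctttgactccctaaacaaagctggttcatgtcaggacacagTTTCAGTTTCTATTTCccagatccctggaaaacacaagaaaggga
Ifit3, chr19:34583369-34583528, plus strand: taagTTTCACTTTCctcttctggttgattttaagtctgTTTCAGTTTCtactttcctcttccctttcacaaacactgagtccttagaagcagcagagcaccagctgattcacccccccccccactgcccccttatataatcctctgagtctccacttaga
Gbp2 held 1 match, at position -59. Bst2, Irgm1 and Gbp3 each held overlapping matches, and Ifit3 had separate ones at positions -156 and -122. Ifit1 carried the same letters as Ifit3, TTTCACTTTC at position -104 and TTTCAGTTTC at position -85. These matches are letters in a window and were not measured as binding sites.

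Array quality bears on the results in several places. The array medians lay between 6.29 and 6.53 log2, except on the third unstimulated CD4 array of day 2 (4.83) and the third unstimulated CD8 array of day 2 (4.97). On those arrays the CD8 lineage genes go against the labels, with a mean of Cd8a and Cd8b1 of 10.19 on the array labelled CD4 and 5.28 on the array labelled CD8. Day 2 results are therefore given with and without both arrays. On day 5 Cd8a and Cd8b1 were at 11.70 or more on every CD8 array and at 6.22 or less on every CD4 array, and every CD4 array had more Cd4 (7.68 or more) than every CD8 array (7.25 or less). Zbtb7b, the factor that sets the CD4 lineage, was at 7.84 and 7.85 in transient CD4 cells, under the 8.02, 7.92 and 8.10 of transient CD8 cells. The mean of 6 pan T cell genes on day 5 was between 11.35 and 12.22. The log2 signal of the 3' beta-actin control minus that of the 5' control, a measure of how far amplified RNA is shortened, was 1.92 to 2.44 in unstimulated CD8 cells and 2.42 to 2.73 in transient CD4 cells, against 0.31 to 1.02 in all other day 5 arrays.

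Of the 13 antiviral effectors, 8 were higher on every array of cells recovered from hosts than on every array of stimulated cultures. Ifit1, which binds viral RNA that lacks the host's cap methylation, was at 4.24 to 5.75 log2 on the 6 stimulated arrays of day 2 and at 6.93 to 11.07 on the 16 arrays of day 5, with a day 5 median of 8.96. Mx1, a GTPase that blocks influenza virus and whose allele in C57BL/6 mice is known to be defective, was at 3.95 to 4.44 in the stimulated cultures and at 6.44 to 9.96 on day 5. Oasl2, a member of the oligoadenylate synthetase family, went from 3.04 to 3.84 in stimulated cultures to 4.10 to 9.15 on day 5. The stimulated values of Mx1 and Oasl2 are low, under the lower quartile of all probe sets on those arrays (4.65 to 4.7). The lowest day 5 value of Oasl2 is as low. For 13 of the 36 members (36.1%) every day 5 array was above every stimulated day 2 array, as it was for 4.74% of all genes. The order was the other way round for 0 members and for 7.11% of all genes. The 13 were Irf7, 8 antiviral effectors (Ifit1, Ifit2, Ifit3, Isg20, Oas1a, Oasl2, Mx1 and Rtp4) and 4 of the ubiquitin and nuclear body group (Trim21, Trim30a, Sp100 and Parp14). Mx1 is counted with the effectors, and none of the 6 genes of the GTPase group and no transporter subunit was among them. The other 5 effectors overlapped between the days. Bst2 was at 8.02 to 9.52 in the stimulated cultures and at 6.40 to 8.75 on day 5, with a day 5 median of 7.23, and Oas2, Oasl1, Mx2 and Adar had day 5 arrays both within and above the range of the stimulated cultures. Measured against all 12 day 2 arrays, unstimulated ones included, the same order held for 3 members (8.33%) and for 1.37% of all genes. Days differ in culture, host and sorting at once, and may differ in hybridization set, so no test was made across them.

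**Figure D1:**
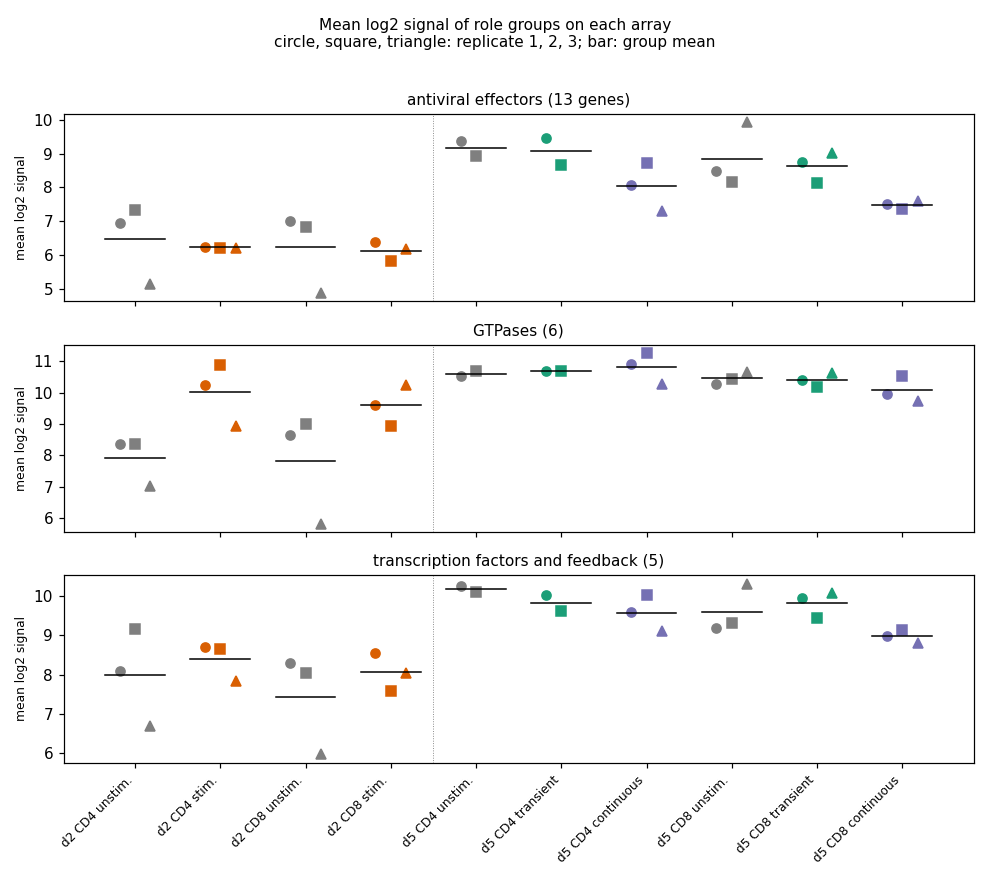
Mean log2 signal of the antiviral effectors (13 genes), the GTPases (6 genes) and the transcription factors with the feedback gene Usp18 (5 genes) on each of the 28 arrays, by group, with points for arrays and bars for group means. The effector mean is between 5.83 and 6.38 on the stimulated day 2 arrays and between 7.29 and 9.92 on day 5, while the GTPase mean of stimulated day 2 arrays reaches 10.88, within the day 5 range of 9.75 to 11.27.

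On day 5, continuous CD8 cells had the lowest levels of most members. Their group mean was the lowest of the 6 day 5 groups for 24 of the 36 members (66.7%), as it was for 24.5% of all genes, and it was the highest for none of the members, against 16.5% of all genes. Against unstimulated CD8 cells, 15 members were called lower, which means an adjusted p below 0.05, and 1 was called higher. Of all genes, 25.9% were called lower and 21.4% higher in that comparison (47.3% either way). The members' shares were 41.7% lower and 2.78% higher, or 44.4% either way, which is below that of all genes. The median log2 difference of the members was -0.74 and that of all genes -0.12, and 32 of the 36 differences were negative. The 16 calls became 15 to 19 when 1 array was left out.

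Antiviral effectors made up 7 of the 15 members called lower, of 13 measured, with a median difference of -1.26. Oasl2 read 7.65, 6.56 and 9.15 log2 on the unstimulated CD8 arrays, 5.65, 4.37 and 6.60 on the transient ones and 4.60, 4.10 and 4.68 on the continuous ones. All continuous arrays were below all unstimulated ones, with a difference of -3.33 (SE 0.60, adjusted p = 0.000467), or 10.0-fold. The continuous values are low for these arrays, whose lower quartile of all probe sets was 4.59 to 4.6. Ifit3, a partner of Ifit1 in binding viral RNA, read 9.48, 9.41 and 11.68 on the unstimulated, 10.02, 9.41 and 10.60 on the transient and 7.45, 7.74 and 7.73 on the continuous arrays. The continuous arrays lay close together and under every other CD8 array of day 5, and the third unstimulated array stood above the rest of its group. The Ifit3 difference was -2.55 against unstimulated cells (SE 0.65, adjusted p = 0.00572) and -2.37 against transient cells (SE 0.65, adjusted p = 0.0147). Oas2, which makes the oligoadenylates that activate RNase L, was at 7.74, 7.81 and 10.18 in unstimulated and at 6.48, 6.43 and 6.07 in continuous cells (-2.25, SE 0.58, adjusted p = 0.00613). Again no array of the groups overlapped, and without the third unstimulated array the difference was -1.45, which was called. Isg20, an exonuclease that degrades viral RNA, and Rtp4, an inhibitor of virus replication, were lower as well, with differences of -1.90 and -1.76 from unstimulated cells and of -1.45 and -1.48 from transient cells. Bst2, the tether that holds budding virions on the cell surface, and Ifit2 were lower than in unstimulated cells, with differences of -1.26 and -0.73, and were not called against transient cells. Without the third unstimulated array the Ifit2 difference was -0.45.

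Members of the same families did not all pass the test. Ifit1 read 8.49, 8.22 and 10.96 in unstimulated, 9.54, 8.62 and 10.30 in transient and 6.93, 7.17 and 8.23 in continuous CD8 cells. The lowest unstimulated array (8.22) and the highest continuous array (8.23) overlapped, and the difference of -1.78 (SE 0.74) had an adjusted p of 0.0628. Oas1a had a difference of -1.02 (adjusted p = 0.0560), Mx1 of -0.39 (adjusted p = 0.678), and Adar, the RNA-editing deaminase, stood at 7.83, 8.05 and 8.91 in unstimulated and at 8.76, 8.67 and 8.57 in continuous cells. Adar was called higher in transient than in unstimulated CD8 cells, by 0.78 (SE 0.26, adjusted p = 0.0366).

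**Figure D2:**
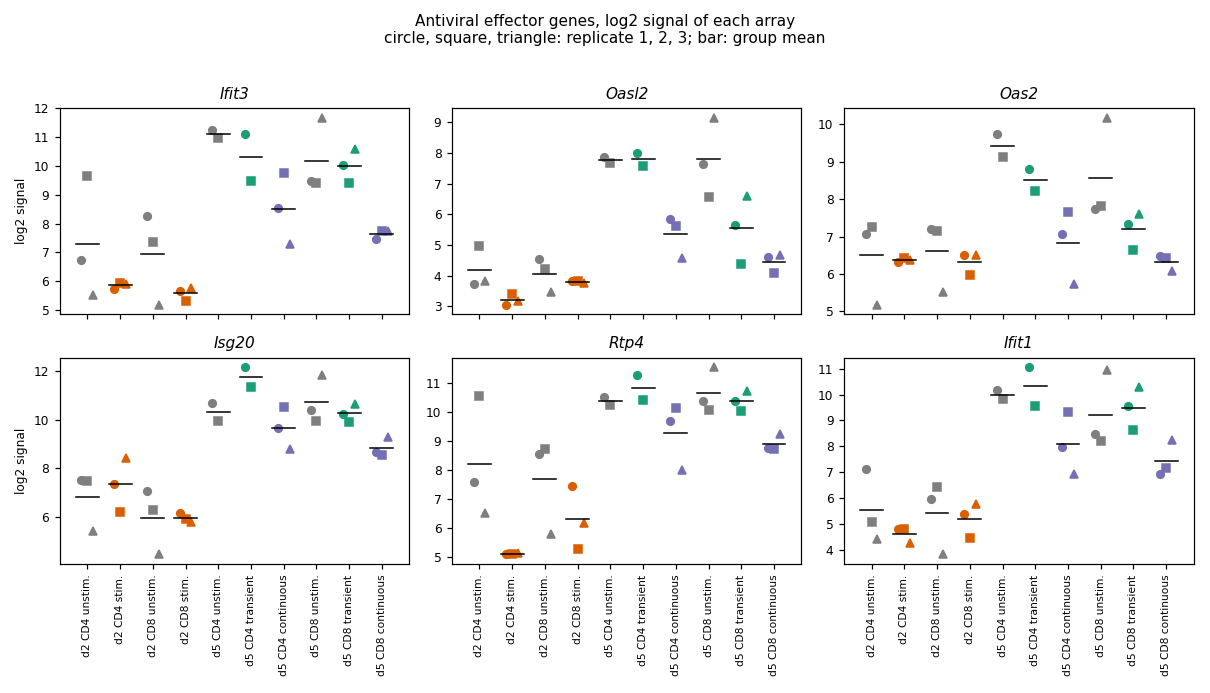
Log2 signal of Ifit3, Oasl2, Oas2, Isg20, Rtp4 and Ifit1 on each array of the 10 groups, with points for arrays and bars for group means. On day 5 the continuous CD8 arrays of Ifit3, at 7.45 to 7.74, lie under all other CD8 arrays, and the third unstimulated CD8 array, at 11.68, lies above all others.

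Among transcription factors, Irf9 and Stat2 were called lower in continuous than in unstimulated CD8 cells, the latter on 1 of its 2 probe sets. Irf9, the DNA-binding subunit, read 9.49, 9.28 and 10.20 in unstimulated, 10.08, 9.85 and 10.29 in transient and 8.64, 9.00 and 8.91 in continuous cells. The continuous arrays were under all others, with differences of -0.80 from unstimulated (SE 0.21, adjusted p = 0.00703) and -1.22 from transient cells (SE 0.21, adjusted p = 0.000833). Stat2, its partner, differed by -1.05 from unstimulated cells (SE 0.27, adjusted p = 0.00609). With the mean of both probe sets this was -0.48 (adjusted p = 0.111). Without the third unstimulated array the Irf9 difference from unstimulated cells was -0.53, and it was called. Irf7, the factor that amplifies type I interferon production, read 8.69, 8.74 and 10.54 in unstimulated, 10.15, 9.58 and 10.32 in transient and 8.83, 9.14 and 9.02 in continuous CD8 cells. The third unstimulated array stood apart from the rest of its group, and Irf7 was called in no comparison within CD8 cells of day 5. Usp18, the protease that removes ISG15 and damps the type I receptor, read 8.62, 8.91 and 10.69 in unstimulated and 9.05, 8.60 and 8.14 in continuous cells. The groups overlapped, and the difference of -0.81 had an SE of 0.54 (adjusted p = 0.231). Irf1, which drives interferon gamma targets, was at 11.80, 12.17 and 11.95 in unstimulated and at 11.77, 12.38 and 11.42 in continuous CD8 cells, and these arrays overlapped.

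Sensors of foreign nucleic acid followed in part. Zbp1, a sensor of Z-form nucleic acid that can trigger necroptosis, was at 9.06, 8.72 and 9.87 in unstimulated, 8.19, 8.59 and 8.52 in transient and 7.35, 7.86 and 7.64 in continuous CD8 cells. The groups did not overlap, with a difference of -1.60 between continuous and unstimulated cells (SE 0.31, adjusted p = 0.000846). Ifih1, the cytosolic sensor of long double-stranded RNA, fell by 0.97 (SE 0.36, adjusted p = 0.0399), from 9.68, 9.43 and 10.82 to 9.13, 9.26 and 8.62. Of the 6 ways to leave out 1 array, 3 lost this call, and the difference was -0.55 (adjusted p = 0.193) without the third unstimulated array. Eif2ak2, the kinase that halts translation on double-stranded RNA, had a difference of -0.19 and an adjusted p of 0.626.

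The GTPases, ubiquitin ligases and nuclear body genes were mixed. Gbp2, a guanylate-binding protein that coats intracellular bacteria, was at 11.32, 11.13 and 11.13 in unstimulated, 10.05, 9.98 and 10.19 in transient and 9.51, 9.85 and 9.95 in continuous CD8 cells. It was lower in both groups that had been stimulated, with differences of -1.12 in transient (SE 0.23, adjusted p = 0.00219) and -1.43 in continuous cells (SE 0.23, adjusted p = 0.000195), and each of those arrays was under every unstimulated one. The difference in transient cells was -0.73 with the mean of both probe sets, which was called. The other 5 GTPases were not called between continuous and unstimulated CD8 cells. Among them Igtp, an immunity-related GTPase, was at 12.04, 12.14 and 12.51 in unstimulated and at 11.58, 12.13 and 11.49 in continuous cells, and Iigp1 at 8.33, 8.87 and 9.17 and at 7.48, 8.71 and 7.24. Both overlapped between the groups. Trim25, the ligase that activates RIG-I, Parp14, an ADP-ribosyltransferase, and Trim30a were lower than in unstimulated cells, with differences of -0.94, -0.90 and -0.76. The differences from transient cells were -0.83 for Parp14, -0.61 for Trim25 and -0.65 for Trim21, the cytosolic antibody receptor. The Trim calls rest on the probe set chosen for each gene. With the mean of a gene's probe sets, the differences from unstimulated cells were -0.08 for Trim25 (adjusted p = 0.781) and -0.32 for Trim30a (adjusted p = 0.298), and 1 of 3 and 1 of 2 probe sets were called. Those from transient cells were then -0.17 for Trim25 (adjusted p = 0.659) and -0.18 for Trim21 (adjusted p = 0.482), with 2 of 3 and 1 of 2 probe sets called.

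Sp100, a nuclear body protein, went the other way from its group. It read 8.03, 7.66 and 7.96 in unstimulated, 9.33, 9.43 and 9.48 in transient and 8.94, 8.52 and 9.15 in continuous CD8 cells. Transient cells were highest and unstimulated cells lowest with no overlap of the 3 groups, and Sp100 was higher by 1.53 in transient (SE 0.17, adjusted p = 2.08e-05) and by 0.99 in continuous (SE 0.17, adjusted p = 0.000356) than in unstimulated cells. Tap1 and Tap2, the subunits of the transporter that loads peptides on class I molecules, were not called in any CD8 comparison of day 5. Tap1 stayed within 10.54 to 11.08 over the 9 CD8 arrays.

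**Figure D3:**
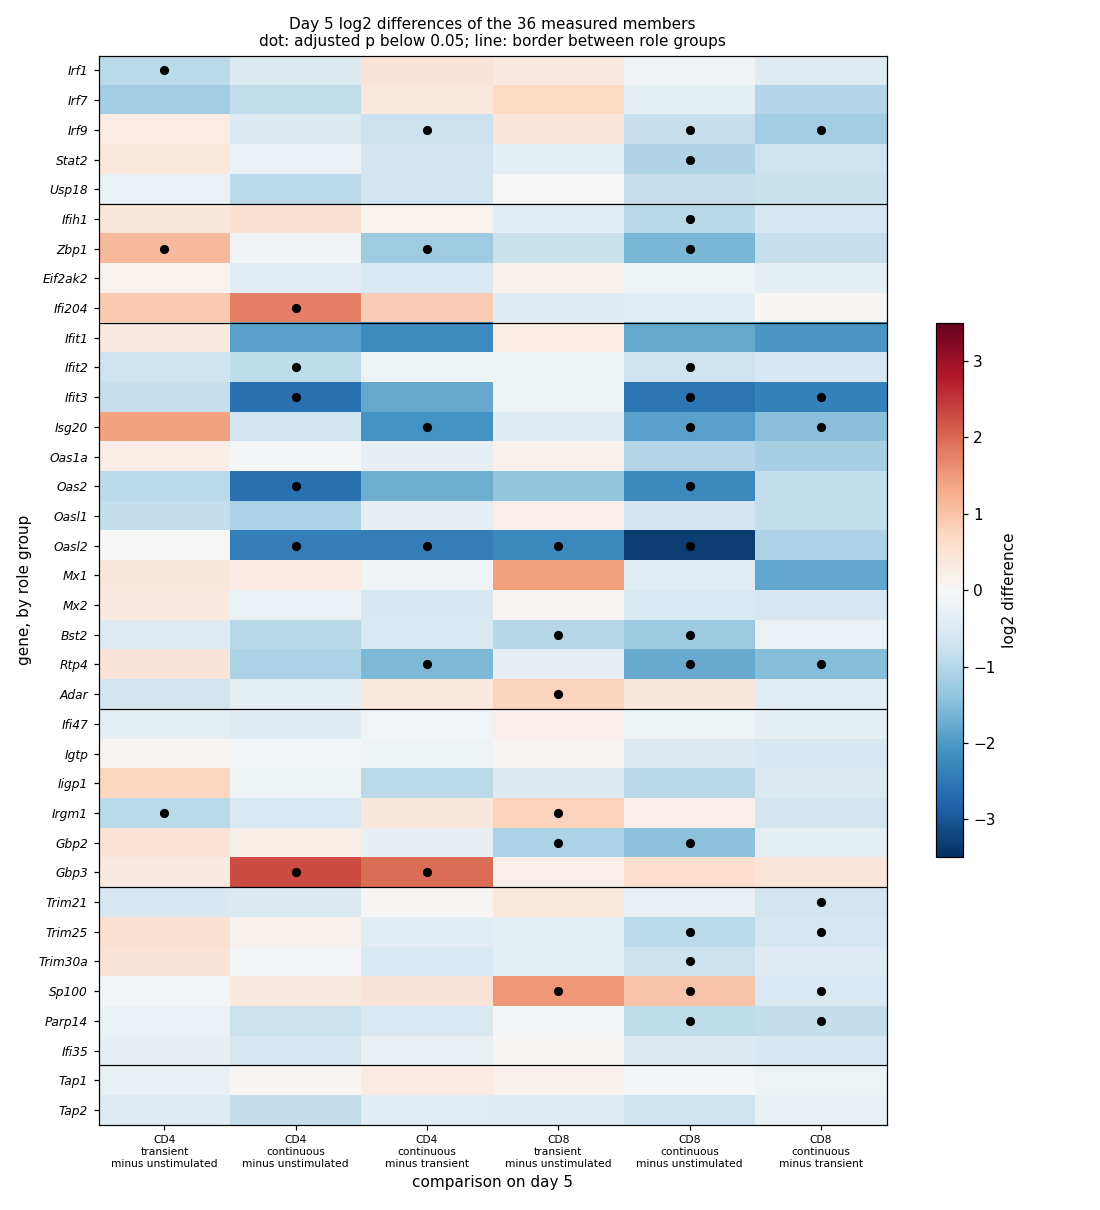
Log2 difference of each of the 36 measured members (vertical axis, ordered by role group) in the 6 day 5 comparisons within a cell type (horizontal axis), blue for lower and red for higher, with a dot where the adjusted p was below 0.05. Continuous against unstimulated CD8 cells hold most dots, 15 of them on lower and 1 on higher values, and the rows of Tap1 and Tap2 hold none.

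Between transient and unstimulated CD8 cells, 3 members were called higher (Sp100, Irgm1 and Adar) and 3 lower (Oasl2, Gbp2 and Bst2), which is 8.33% of the 36 each way, where 16.3% of all genes were called higher and 15.5% lower, and the members' median was 0.02. Oasl2 fell by 2.25 (SE 0.60, adjusted p = 0.0110). Irgm1, a GTPase that regulates autophagy, was higher by 0.82 (SE 0.25, adjusted p = 0.0257). Without the third transient array 3 members were called. Against transient cells, 8 members (22.2%) were called lower and 0 higher in continuous CD8 cells. Of all genes, 13.6% were called in each direction and 27.2% either way, so the members' share either way was smaller. The 8 were Ifit3, Rtp4, Isg20, Irf9, Parp14, Trim21, Trim25 and Sp100. In this comparison 34 of the 36 differences were negative, with a median of -0.60, beside -0.05 for all genes. Without the third transient array 1 member was called, without the first transient array 4 and without the first continuous array 2. Irf9 kept its call in every alternative.

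Several other measures moved with the CD8 groups. The beta-actin difference was 1.92 to 2.44 in unstimulated, 0.66 to 1.02 in transient and 0.31 to 0.56 in continuous CD8 cells. Of 6 plasmacytoid dendritic cell markers, 3 (Ccr9, Cox6a2 and Tlr7) were called lower in both transient and continuous than in unstimulated cells, and Klk1, Tlr9 and Pacsin1 were not called. The mean of the 6 was 7.04 to 7.26 in unstimulated, 5.78 to 5.88 in transient and 5.64 to 5.93 in continuous cells. Ccr9 fell most, from 9.97, 10.77 and 10.17 to 4.48, 4.47 and 4.37 and to 4.35, 4.89 and 4.66. Among sorted day 2 cells, Ccr9 read 9.77, 10.34 and 4.07 in unstimulated CD8 cultures and 6.82, 4.63 and 8.95 in unstimulated CD4 cultures. The CD8 lineage genes go against the label on the third array of each group, where Ccr9 was 4.07 and 8.95. Cox6a2 read 9.82, 10.06 and 9.90 in stimulated CD8 cultures. Whether these markers followed other cells or the T cells themselves was not tested. The mean of 11 myeloid markers ranged from 5.15 to 9.83 in unstimulated, 5.27 to 7.58 in transient and 5.42 to 6.86 in continuous cells, and none of the 11 was called. No B cell marker of 10 was called in the comparisons within CD8 cells, and their mean was 5.31 to 7.67 in unstimulated and 5.52 to 7.02 in continuous cells. The part of these measures in the members' differences was not tested.

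In continuous against unstimulated CD4 cells, 4 of the 13 antiviral effectors (Oas2, Ifit3, Oasl2 and Ifit2) were called lower, and Gbp3 and Ifi204 were called higher. The 4 make 11.1% of the 36 members, close to the 10.8% of all genes called lower, and the 2 make 5.56%, beside 9.92% of all genes called higher (20.7% either way). The members' median difference was -0.44 and that of all genes -0.02. Oas2 was at 9.73 and 9.14 in unstimulated, 8.81 and 8.22 in transient and 7.06, 7.66 and 5.73 in continuous CD4 cells. No continuous array reached the other groups, and the difference from unstimulated cells was -2.62 (SE 0.65, adjusted p = 0.0111). Ifit3 read 11.25 and 10.99 in unstimulated, 11.11 and 9.49 in transient and 8.54, 9.75 and 7.28 in continuous CD4 cells. Its difference from unstimulated cells was -2.60 (SE 0.73, adjusted p = 0.0217), while the arrays of transient and continuous cells overlapped. Oasl2 was at 7.86 and 7.67, at 7.99 and 7.59, and at 5.85, 5.63 and 4.59 in the same order, a difference of -2.41 from unstimulated (SE 0.67, adjusted p = 0.0200) and -2.43 from transient cells (SE 0.67, adjusted p = 0.0116). Ifit2 fell by 0.90 (SE 0.24, adjusted p = 0.0149). All 4 of these members were also among the 15 called lower in the comparison of CD8 cells, which uses other arrays. In that comparison 41.7% of the members and 25.9% of all genes were called lower. How many of all genes were called lower in both cell types was not counted.

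Gbp3 and Ifi204 were higher in continuous CD4 cells. Gbp3, another guanylate-binding protein, read 9.04 and 9.30 in unstimulated, 9.10 and 9.88 in transient and 11.88, 11.34 and 11.13 in continuous CD4 cells. All 3 continuous arrays were above every other CD4 array of day 5, by 2.28 against unstimulated (SE 0.38, adjusted p = 0.000853) and 1.96 against transient cells (SE 0.38, adjusted p = 0.00121). In CD8 cells Gbp3 was at 9.35, 9.50 and 9.32 in unstimulated and at 10.38, 10.60 and 9.00 in continuous cells, where the third array stood under the others and no call was made. Ifi204, a nuclear sensor of DNA, read 3.77 and 3.36 in unstimulated, 3.71 and 5.26 in transient and 5.92, 5.78 and 4.33 in continuous CD4 cells. Continuous arrays were higher by 1.77 (SE 0.45, adjusted p = 0.0118), at levels that are low for these arrays, whose lower quartile of all probe sets was 4.59 to 4.77 on day 5.

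**Figure D4:**
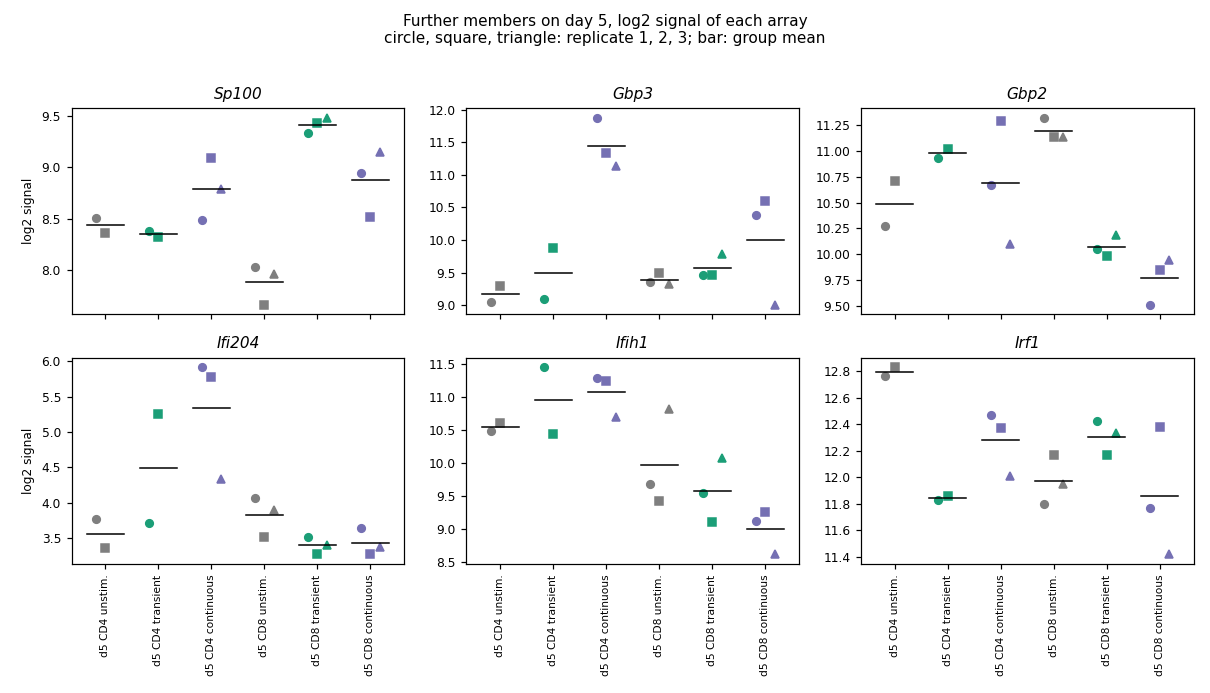
Log2 signal of Sp100, Gbp3, Gbp2, Ifi204, Ifih1 and Irf1 on each array of the 6 day 5 groups, with points for arrays and bars for group means. Gbp3 is at 11.13 to 11.88 in continuous CD4 cells and at 9.04 to 9.88 on the other CD4 arrays, and Sp100 is at 7.66 to 8.03 in unstimulated CD8 cells and at 9.33 to 9.48 in transient ones.

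Against transient CD4 cells, 5 members were called lower in continuous ones (Oasl2, Isg20, Rtp4, Zbp1 and Irf9) and Gbp3 was called higher, beside 16.5% of all genes lower and 17.6% higher. Isg20 was at 12.16 and 11.34 in transient and at 9.65, 10.51 and 8.81 in continuous CD4 cells, a difference of -2.09 (SE 0.54, adjusted p = 0.00842) without overlap. Isg20, Rtp4 and Irf9 were called lower in this comparison in CD8 cells too. That is 3 of the 5 members in CD4 and 3 of the 8 in CD8 cells, and the overlap over all genes was not counted. Of the 2 probe sets of Rtp4, 1 was called in each cell type, and in CD4 cells the mean of both gave -0.82 (adjusted p = 0.158) and leaving out the third continuous array -0.92 (adjusted p = 0.13). Transient and unstimulated CD4 cells differed in 1 member called higher and 2 called lower, where 9.66% and 13.1% of all genes were called (22.8% either way). Zbp1 was higher in transient cells, at 9.57 and 9.03 against 8.26 and 8.05 (1.14, SE 0.38, adjusted p = 0.0449), and the mean of its 2 probe sets gave 0.53 (adjusted p = 0.357). Irf1 was at 11.83 and 11.86 in transient and at 12.76 and 12.83 in unstimulated cells (-0.95, SE 0.24, adjusted p = 0.0122), and Irgm1 at 8.60 and 8.36 against 9.23 and 9.58 (-0.93, SE 0.31, adjusted p = 0.0470). The arrays of the chosen probe sets did not overlap between groups.

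The CD4 calls depended on single arrays. For continuous against unstimulated cells, 2 members were called without the first unstimulated array, 3 without the second unstimulated array, 3 without the third continuous array and 8 without the second continuous array. For continuous against transient cells, 1 member was called without the first transient array and 10 each without the second transient or the second continuous array. For transient against unstimulated cells, leaving out any of the 4 arrays left 0 or 1. Gbp3 kept both of its calls throughout. Transient CD4 cells also differed in other markers. The mean of 10 B cell markers was 7.56 to 8.75 there, 5.19 to 6.07 in unstimulated and 4.98 to 5.74 in continuous CD4 cells. Of the 10, 4 were called higher than in unstimulated and 7 higher than in continuous cells, beside 9.66% and 16.5% of all genes. Cd4 and Zbtb7b were called lower in transient than in unstimulated cells, and the beta-actin difference was highest there. Myeloid marker means ranged from 5.87 to 7.96 in unstimulated, 6.89 to 9.81 in transient and 5.25 to 8.03 in continuous cells. Their part in the members' differences was not tested.

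The change from unstimulated to transient cells was also compared between the lineages. The change in CD8 minus the change in CD4 cells was called positive for 6 members (16.7%) and negative for 3 (8.33%), beside 18.5% and 18.9% of all genes. Either way that is 25.0% of the members, below the 37.5% of all genes, so the values here are those of single genes and not of the members as a group. Sp100 changed by 1.53 in CD8 and by -0.09 in CD4 cells, where it stood at 8.51 and 8.36 in unstimulated and 8.38 and 8.32 in transient cells, and the changes differed by 1.62 (SE 0.27, adjusted p = 0.000358). Irgm1 changed by 0.82 in CD8 and -0.93 in CD4 cells, and Irf1 by 0.33, which was not called, and -0.95, with differences between the changes of 1.75 (SE 0.40, adjusted p = 0.00382) and 1.28 (SE 0.31, adjusted p = 0.00553). Gbp2 differed by -1.60 (SE 0.36, adjusted p = 0.00339), as it fell in CD8 cells and was at 10.27 and 10.71 in unstimulated and 10.93 and 11.02 in transient CD4 cells. Zbp1 differed by -1.93, Irf7 by 1.92, Adar by 1.46, Trim21 by 0.93 and Trim25 by -0.86. With the mean of all probe sets of a gene, 3 of these calls were lost, with -0.82 for Gbp2 (adjusted p = 0.0894), -1.02 for Zbp1 (adjusted p = 0.118) and 0.21 for Trim25 (adjusted p = 0.682). The beta-actin difference and the B cell markers move with this contrast. The former was high in unstimulated CD8 and in transient CD4 cells and the latter in transient CD4 cells, and their part was not tested. Between transient and continuous cells only Sp100 was called among the 36, at -0.99 (SE 0.26, adjusted p = 0.0165), beside 10.7% of all genes called negative and 8.13% positive. Leaving out the second continuous CD8 array gave 4 members, the third continuous CD4 array 3, and the first or the third continuous CD8 array 2.

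Between the unstimulated groups, 5 members were lower (Irgm1, Irf1, Ifit2, Trim21 and Sp100) and Zbp1 was higher in unstimulated CD8 than in unstimulated CD4 cells of day 5, beside 14.3% and 14.4% of all genes (28.7% either way). The sizes were between -0.93 and -0.55, and 1.06 for Zbp1, which with the mean of its 2 probe sets, 1 of them called, was 0.09 (adjusted p = 0.863). Without either unstimulated CD4 array no member was called, without the first or the second unstimulated CD8 array 3 were, and without the third unstimulated CD8 array 8 were. Under continuous antigen, 6 members were lower and 0 higher in CD8 than in CD4 cells, beside 4.62% and 6.58% of all genes. Ifih1 was at 11.28, 11.24 and 10.70 in continuous CD4 and at 9.13, 9.26 and 8.62 in continuous CD8 cells, a difference of -2.07 (SE 0.36, adjusted p = 0.00289) with no overlap. Ifi204 (-1.91), Gbp3 (-1.45), Gbp2 (-0.92), Parp14 (-0.83) and Irf9 (-0.74) were the others. Of the 6 ways to leave out 1 array, Irf9 kept its call in 0, Gbp2 and Parp14 in 2 each and Gbp3 in 5. Without the third continuous CD8 array the Gbp3 difference was -0.96, which was called. Ifih1 kept this call in every alternative, and so did Ifi204 where it was tested, as it fell among the lowest 30% of genes that 1 alternative left out. Ifi204 was at 3.65, 3.28 and 3.37 in continuous CD8 cells, where the lower quartile of all probe sets was 4.59 to 4.60. The count was 2 without the first continuous CD4 array and 3 without the second continuous CD4 or the first continuous CD8 array.

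On day 2, the median difference between stimulated and unstimulated cells was 2.27 for GTPases, 1.89 for the transporter subunits and -0.36 for antiviral effectors in CD4 cells, and 1.88, 1.80 and -0.09 in CD8 cells. Without the third unstimulated arrays the same medians were 1.70, 1.77 and -1.15 in CD4 cells and 0.95, 0.92 and -0.71 in CD8 cells. Few of the differences passed the test with all arrays. In that fit, 2 members were called higher in stimulated CD4 cells and 0 lower, beside 10.7% and 0.718% of all genes. Gbp2 read 7.24, 9.43 and 7.71 in unstimulated and 11.87, 12.45 and 10.47 in stimulated CD4 cells, a difference of 3.47 (SE 0.92, adjusted p = 0.0276) without overlap. Bst2 read 6.84, 8.25 and 5.75 and then 9.35, 9.52 and 8.97, a difference of 2.33 (SE 0.67, adjusted p = 0.0389), also without overlap. In CD8 cells limma called 0 of the members in either direction, beside 7.49% of all genes called higher and 0.863% lower (8.35% either way). Before adjustment, 6 of the 36 members had a limma p below 0.05, as did 2894 of the 12393 genes. Igtp was at 10.18, 11.16 and 8.50 in unstimulated and 12.75, 12.98 and 11.76 in stimulated CD4 cells, and at 11.03, 11.04 and 7.46 and 12.64, 11.97 and 12.65 in CD8 cells. All stimulated arrays were above all unstimulated ones in each cell type, and the third unstimulated array was the lowest of its group. Tap1 was at 8.30, 9.58 and 8.87 and then 11.01, 10.95 and 10.65 in CD4 cells, and at 10.25, 9.69 and 7.58 and then 11.32, 10.21 and 10.52 in CD8 cells, where the groups overlapped.

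With the third unstimulated array left out in each cell type, more members were called on day 2, as were more of all genes. In CD4 cells 7 were called higher (19.4%) and 11 lower (30.6%), beside 26.2% and 39.4% of all genes. In CD8 cells 2 were called higher (5.56%) and 5 lower (13.9%), beside 16.5% and 21.4% of all genes. The members' shares were below those of all genes in both directions, and no test between role groups was made. Higher in CD4 cells were Gbp2 by 3.26, Tap1 by 1.93, Igtp by 1.83, Bst2 by 1.73, Irgm1 by 1.68, Tap2 by 1.62 and Irf1 by 0.93, which include both transporter subunits, 3 of 6 GTPases and, with Bst2, 1 of the 13 antiviral effectors. Lower were 8 antiviral effectors (Rtp4, Ifit3, Ifit1, Mx1, Mx2, Oas2, Oasl1 and Oasl2), with Irf7, Eif2ak2 and Trim25. Rtp4 was at 7.59 and 10.55 in unstimulated and 5.09, 5.08 and 5.14 in stimulated CD4 cells, a difference of -3.97 (SE 0.81, adjusted p = 0.00264). In CD8 cells Igtp (1.39) and Tap2 (1.12) were higher, and Rtp4 (-2.33), Ifit3 (-2.24), Irf7 (-0.85), Oas2 (-0.85) and Mx2 (-0.58) were lower. Irf7 read 8.04, 7.74 and 4.90 in unstimulated and 7.28, 7.08 and 6.79 in stimulated CD8 cells, so that its direction turned with the third array. The difference between the cell types was called by limma for 0 members with or without these arrays. With all arrays 0 members had an unadjusted p below 0.05, as did 70 of the 12393 genes, and 0% of all genes were called. Without the third arrays 4 members had an unadjusted p below 0.05 (Gbp2, Mx2, Oasl1 and Eif2ak2). At the stricter adjusted threshold, 0.718% of all genes were called positive and 1.77% negative.

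Other day 2 members varied widely among the unstimulated arrays. Usp18 was at 7.12, 9.50 and 5.64 in unstimulated and 9.16, 9.51 and 6.40 in stimulated CD4 cells. Iigp1 was at 7.61, 4.51 and 3.56 and then 7.62, 8.93 and 6.77, and Ifih1 at 8.34, 8.38 and 5.24 and then 7.69, 7.66 and 9.65. Each of these overlapped between the groups. The beta-actin difference was 3.37 to 4.30 in unstimulated and 1.11 to 1.39 in stimulated CD4 cells of day 2, and 2.28 to 4.27 and 1.38 to 1.69 in CD8 cells, and its part in the differences was not tested.

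**Figure D5:**
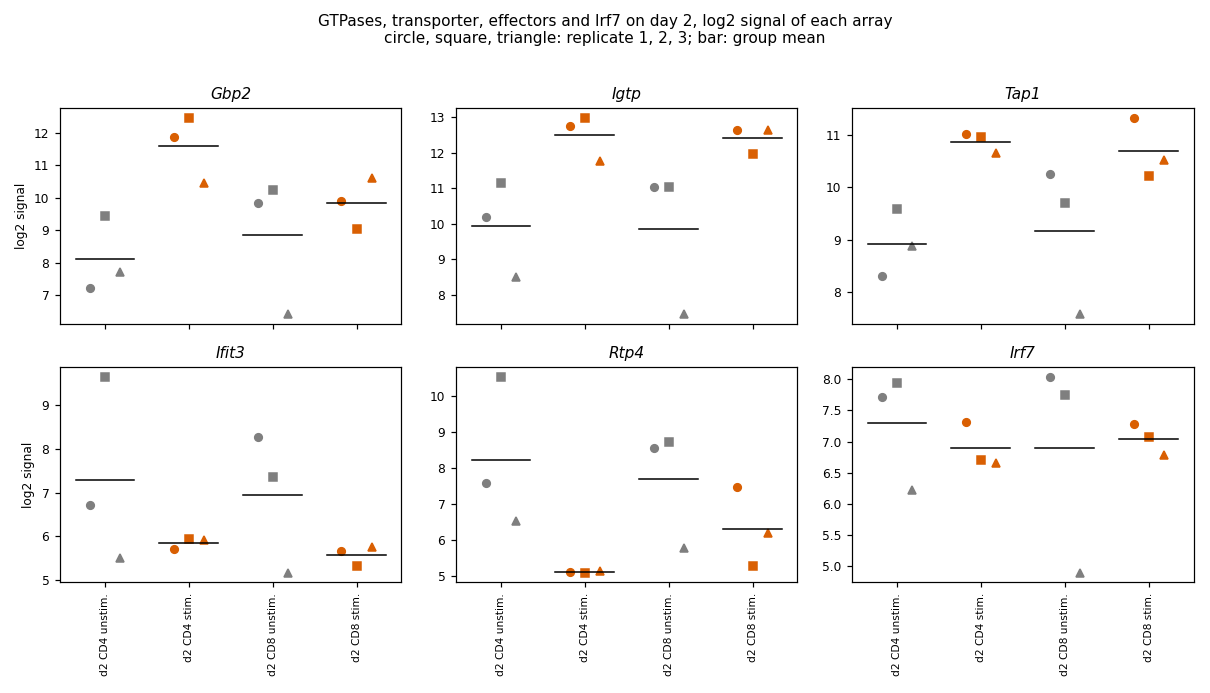
Log2 signal of Gbp2, Igtp, Tap1, Ifit3, Rtp4 and Irf7 on each day 2 array of the 4 groups, with points for arrays and bars for group means. The triangles of both unstimulated groups are the third arrays. Stimulated CD4 arrays of Igtp, at 11.76 to 12.98, are above all unstimulated CD4 arrays, and those of Rtp4, at 5.08 to 5.14, are below them.

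Genes upstream of the members and other targets were counted from lists of the same pathway. Of 14 measured ligands, receptors, kinases and brakes, Ifng itself was called higher after stimulation on day 2 in CD4 (3.87, adjusted p = 0.0231) and CD8 cells (5.99, adjusted p = 0.00241), and without the third unstimulated arrays its differences were 3.12 (adjusted p = 0.0341) and 5.62 (adjusted p = 0.0054). Ifng stood at 12.48, 11.69 and 10.51 in continuous CD4 and at 9.65, 12.13 and 10.24 in continuous CD8 cells of day 5, against 5.44 and 6.04, and 5.21, 6.13 and 5.43, in unstimulated cells. Its differences there were 5.83 in CD4 (adjusted p = 7.1e-05) and 5.09 in CD8 cells (adjusted p = 1.81e-05). In continuous against unstimulated CD8 cells 3 of the 14 were called higher and 5 lower, beside 21.4% and 25.9% of all genes. Among the lower ones were Socs3, a brake on cytokine receptors, by -4.12 (adjusted p = 1.94e-06), and Jak1, the kinase shared by the interferon receptors, by -0.99 (adjusted p = 0.000427). In CD4 cells 2 were higher and 3 lower in the same comparison, beside 9.92% and 10.8% of all genes, with Jak1 at -0.72 (adjusted p = 0.0180).

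Of 13 measured other interferon-induced genes, 2 were called lower and 0 higher in continuous against unstimulated CD8 cells, where 25.9% of all genes were called lower and 21.4% higher. Ddx60, a helicase that assists RIG-I, was called lower in continuous than in unstimulated cells in CD8 (-1.72, adjusted p = 0.00681) and in CD4 cells (-2.07, adjusted p = 0.0103). Cxcl10, a chemokine that draws activated T cells, was higher in continuous than in transient CD8 cells (1.35, adjusted p = 0.0281). On day 2 Ifitm2 and Ifitm3, which block virus entry, were called higher after stimulation in both cell types, by 5.64 and 6.47 in CD4 and 5.02 and 3.16 in CD8 cells. Without the third unstimulated arrays these differences were 4.63 and 5.31 in CD4 and 4.84 and 2.62 in CD8 cells, each again called.

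Of 9 measured class I presentation genes, 4 were called higher and 0 lower in continuous than in unstimulated CD8 cells, beside 21.4% and 25.9% of all genes. The 4 include H2-K1, a class I heavy chain, by 0.43 (adjusted p = 0.00847) and Psmb9, an immunoproteasome subunit, by 0.53 (adjusted p = 0.0172). In transient against unstimulated cells 7 were called higher in CD8 and 6 lower in CD4 cells, beside 16.3% and 13.1% of all genes. The difference between the cell types was called for all 9, beside 37.5% of all genes either way. Tapbpl, a peptide editor, changed by 0.74 in CD8 and by -1.51 in CD4 cells. The beta-actin and B cell marker differences described above move with this contrast too.

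Members varied more within groups than most genes, and varied together. Their median within-group SD on day 5 was 0.429, beside 0.184 for all genes, and 93.7% of all genes had an SD under the members' median. Ifit1 (1.05), Mx1 (1.01) and Ifit3 (0.92) were the widest. The third unstimulated CD8 array was the highest of its group for 30 of 36 members, as it was for 38.1% of all genes, and the third continuous CD4 array was the lowest for 32, beside 29.5%. The second transient CD8 array was the lowest for 31 members, beside 34.0%. In continuous CD8 cells no array stood out in this way, with each array the lowest for 9 to 17 members. Averaged over all members, the unstimulated CD8 arrays were at 9.13, 9.07 and 10.03, the continuous CD4 arrays at 9.24, 9.65 and 8.64, and the continuous CD8 arrays at 8.59, 8.68 and 8.51. The myeloid mean of the third unstimulated CD8 array, 6.39, and its B cell mean, 6.24, lay between those of the others, and its beta-actin difference was the lowest of its group. Its plasmacytoid marker mean was the highest of the group, at 7.26 beside 7.06 and 7.04, as was its NK cell marker mean, at 5.93 beside 5.41 and 5.23. The part of these measures was not tested.

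Members with and without a promoter match were set side by side as a description. Of the 13 members with a response element match, 6 were called lower in continuous against unstimulated CD8 cells, as were 5 of the 13 without one, and the median differences were -0.97 and -0.49. Against transient cells 2 with and 4 without a match were called lower, with medians of -0.58 and -0.55. Of the 13 members called in no comparison, Ifit1, Oas1a, Igtp and Eif2ak2 held a match, and Oasl1, Ifi47, Ifi35 and Tap1 did not. Usp18, Mx1, Mx2, Iigp1 and Tap2 had no window and were not searched. No match within this window says only that these letters are not there.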

How the data were processed

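Expression was measured on 28 Affymetrix Mouse 430A2 arrays. The authors deposited log2 values of 22690 probe sets, made with RMA per the submitters' processing notes (version not given in the sources used here). RMA corrects background, normalizes quantiles and summarises probes. The deposited values were used unchanged. Probe sets with several symbols (691), with none (1555) and controls (64) were left out, which leaves 20380 probe sets and 12393 genes.

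The members and the other gene lists were chosen with earlier results of these data known, so no list is independent evidence. Each day was fitted with limma 3.58.1 in R 4.3.3, 1 mean per group, with 12 arrays and 8 residual degrees of freedom on day 2 and 16 arrays and 10 on day 5. All tests are two-sided. Benjamini-Hochberg adjustment ran over the 12393 genes, with calls made at an adjusted p below 0.05. The script was tested on simulated data. The text names the called members of each comparison, with array values for the 2 members per role group and day with the widest range of group means and for Ifit1, Ifit3, Irf7, Usp18, Gbp2, Igtp, Irf1 and Tap1, and up to 3 called genes of each other list and comparison by size. Array values are also given for a few further called members, chosen after their values were seen. The number of arrays limits the precision: the median SE of a log2 difference was 0.557 on day 2 and 0.148 to 0.182 on day 5 within a cell type.

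The alternatives changed the probe set rule (their mean), the genes tested (without the lowest 30%), the scaling (quantile normalization or median centring), the fit (array weights, trend and robust moderation, or a replicate block) or the arrays used. Replicate numbers were checked by correlating deviations of same-numbered arrays from their group means. Where there were 3 pairs, all exceeded 0.1 only for transient against unstimulated CD8 cells of day 5 (0.50, 0.36 and 0.15). Where there were 2 pairs, they were 0.42 and 0.28 for continuous against unstimulated CD4 cells and 0.45 and 0.40 between the unstimulated groups of day 5. They were -0.21 and -0.21 for transient against unstimulated and -0.27 and -0.20 for continuous against transient CD4 cells. The positive values hint at pairing, but the labels name nothing that equal numbers share. Promoter stretches are RefSeq's, build GRCm38.p6.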

Additional observations from a re-analysis of the deposited data

Results flagged for a closer look

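All values listed here are log2 differences between the change in CD8 cells and the change in CD4 cells on day 5, each called by limma after adjustment over all genes. For transient minus unstimulated cells they were 1.46 for Adar (adjusted p = 0.0133), -1.60 for Gbp2 (adjusted p = 0.00339), 1.28 for Irf1 (adjusted p = 0.00553), 1.92 for Irf7 (adjusted p = 0.0333) and 1.75 for Irgm1 (adjusted p = 0.00382). Sp100 gave 1.62 (adjusted p = 0.000358), Trim21 0.93 (adjusted p = 0.0199), Trim25 -0.86 (adjusted p = 0.0487) and Zbp1 -1.93 (adjusted p = 0.00720). For continuous minus transient cells Sp100 gave -0.99 (adjusted p = 0.0165). The contrast rests on 2 unstimulated and 2 transient CD4 arrays. Of these values, those of Irf1, Irgm1 and Sp100 for transient minus unstimulated cells kept their call in every alternative. No group has 4 or more arrays, so no array was tested as an outlier within its group.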

How the results depend on the processing

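Of 69 member calls over the 13 comparisons, 22 held in every alternative that tested the gene and 26 whenever 1 array was left out. In stimulated against unstimulated CD4 cells of day 2 (2 members called) the count was 4 without the lowest 30% of genes, 10 with quantile normalization, 16 with median centring, 6 with array weights, 6 with the replicate block, 4 with trend and robust moderation and 18 without the third unstimulated arrays. In CD8 cells of day 2 (0 called) it was 3 with quantile normalization, 7 with median centring, 16 with array weights, 2 with the replicate block, 1 with trend and robust moderation and 7 without the third arrays. For transient against unstimulated CD4 cells of day 5 (3) array weights and the replicate block each gave 1, and a block with crossed replicate numbers, added after the data were seen, gave 2. For continuous against transient CD8 cells (8) array weights gave 18. For the CD8 minus CD4 difference of continuous minus transient cells (1) the mean of probe sets, median centring, array weights and trend and robust moderation gave 2 each, and the lowest 30% left out and the replicate block gave 3 each. The replicate block moved no other count by over 1.5 times. With 1 array left out, the counts ranged from 0 to 5 and 0 to 2 on day 2 in CD4 and CD8 cells and stayed 0 for their difference. On day 5 they ranged from 0 to 1, 2 to 8 and 1 to 10 in CD4 cells for transient against unstimulated, continuous against unstimulated and continuous against transient, and from 3 to 7, 15 to 19 and 1 to 9 in CD8 cells. For CD8 against CD4 cells they ranged from 6 to 10 and 1 to 4 for the differences of changes, from 0 to 8 for unstimulated and from 2 to 9 for continuous cells. Directions turned for Irf7 in CD8 cells of day 2 (-0.78 with array weights, -0.85 without the third arrays), Mx2 (-0.52 and -0.58) and the CD8 minus CD4 difference of Trim25 for transient minus unstimulated cells (0.21 with the mean of probe sets). The causes were not tested. Where leaving out an array left 1 in its group, the spread of the remaining groups was taken to hold for it.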
